A study of Drosophila melanogaster with 37 samples.

Results

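The Osiris (Osi) and Tweedle (Twdl) genes are insect gene families that lie in tandem arrays. Their members were taken from the transcription unit annotation of the study, build dm6, as the genes whose symbol begins with Osi and a digit or with Twdl. This gave 50 of 17698 annotated genes, 24 Osiris and 26 Tweedle genes, each in a different transcription unit (TU). A TU is a stranded interval of the genome that holds 1 gene or several genes.

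The series applied mNET-seq, a method that reads nascent RNA held by immunoprecipitated RNA polymerase II, to embryos of Drosophila melanogaster at stage 15. The embryos were maternally depleted of MOF, a histone acetyltransferase, with a UAS-mof RNAi or came from a control RNAi, and they were sorted by sex. Polymerase was pulled down as total polymerase or with its C-terminal domain phosphorylated on serine 2 or serine 5. The 37 samples fell into 12 groups. For mof knockdown and control in turn, total polymerase had 4 and 4 female and 3 and 3 male samples, serine 5 had 4 and 3 female and 4 and 4 male samples, and serine 2 had 2 samples in each group. The labels give 6000 embryos per preparation and name neither the driver of the RNAi nor the sequence of the control RNAi. Polymerase signal over these genes was not analysed here, so the results below describe where the genes lie and what surrounds them, not how strongly they were transcribed, and no depth applies. An annotation is a census with no replicates, so values carry no error and no test. Neighbouring members share a locus and are not independent of each other.

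Osiris proteins are secretory or membrane proteins of insects, with a signal peptide at the start, and many are made in epidermal and tracheal cells while these lay down cuticle. The main Osiris array is known from the Triplo-lethal region of the genome, where flies with too few or too many copies die. Tweedle proteins are secreted structural proteins of the cuticle, and dominant mutations in Tb and TwdlD make larvae and pupae short and stout. Late embryos build the larval cuticle. Whether the members of either family were transcribed at the stage sampled was not tested here.

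The Osiris family was almost entirely in a single array. With neighbouring members up to 100 kb apart joined, 21 of 24 members (87.5%) formed 1 cluster on 3R from 6173549 to 6341424, a span of 168 kb. The other 3 members stood alone, Osi21 on 2L and Osi22 and Osi23 on 3R. No member was on the X, 2R or 3L. The Tweedle family was more dispersed, with 20 of 26 members on 3R, 4 on the X, 1 on 2L and 1 on 2R. It formed 4 groups of at least 2 members and 3 single genes, and its largest cluster held 13 members (50%) on 3R from 26619118 to 26693590, a span of 74.5 kb. The largest clusters of the families lay 20.3 Mb apart on the same arm. For comparison, 70 Cpr genes, which encode chitin-binding cuticle proteins of another family, were taken as symbols of Cpr and a digit. They fell into 32 groups by the same rule, with at most 8 TUs in a group. Cuticle genes under other symbols were not counted, so groups of that family may be larger than given. The Cpr group from Cpr65Au to Cpr65Az, for example, had 13 other TUs inside its span.

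The order of the Osiris cluster followed the numbering of the genes with 1 exception. Along the plus strand the cluster ran from Osi1 through Osi24, Osi2 and Osi3 to Osi20, so that the number rose at 19 of 20 steps and fell at the step that leaves Osi24. The first member, Osi1 (FBgn0037406), occupied 6173549 to 6174971, and the last, Osi20 (FBgn0037430), occupied 6340095 to 6341424. Of the 21 members, 19 were on the plus strand. Osi4 (FBgn0037412, 6218318 to 6221781) and Osi11 (FBgn0037418, 6267591 to 6268757) were the 2 on the minus strand.

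**Figure D1:**
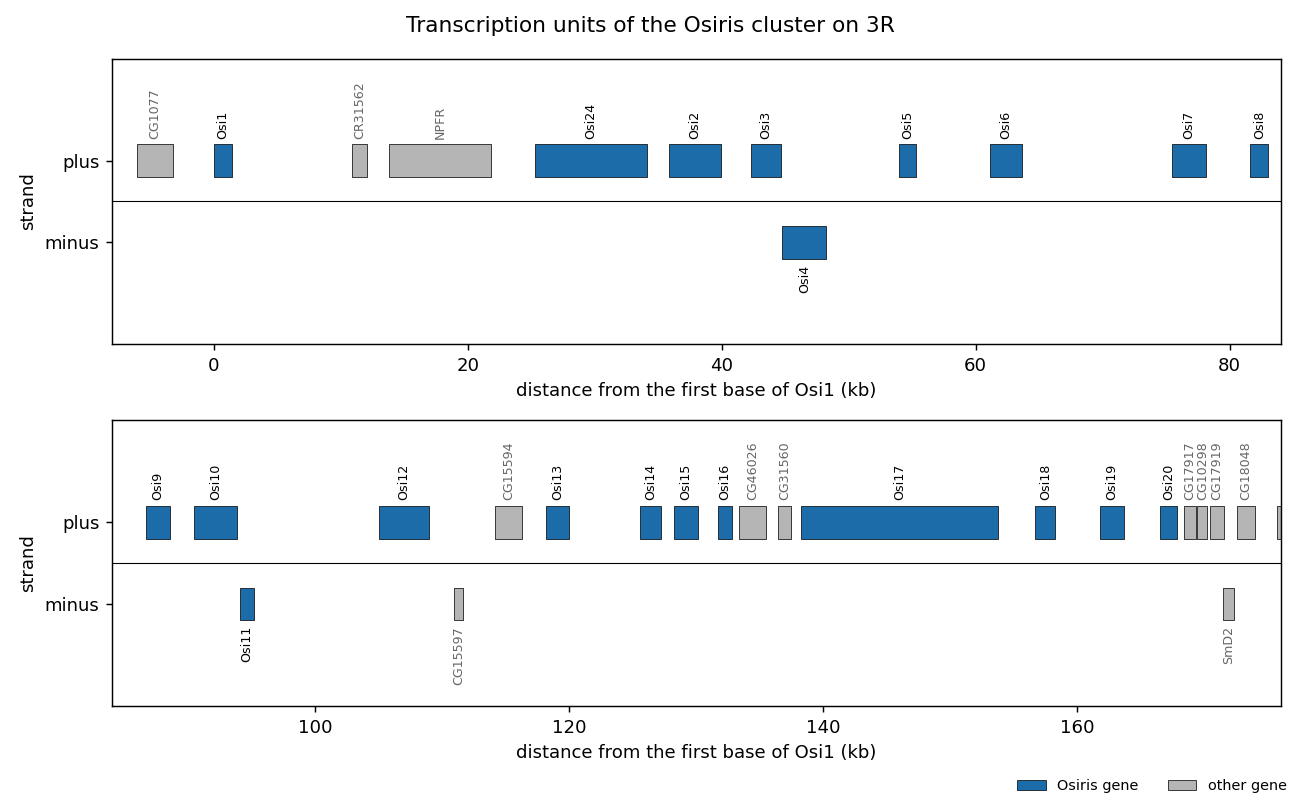
The TUs of the Osiris cluster are drawn to scale on the plus and minus strands against the distance in kb from the first base of Osi1, in 2 panels that follow each other. Osiris members are blue and other genes grey. Of the 21 members, 19 lie on the plus strand, and Osi4 and Osi11 lie on the minus strand.

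The inverted members divided the array into blocks. Before Osi4 lay 4 plus-strand members, Osi1, Osi24, Osi2 and Osi3. Between Osi4 and Osi11 lay 6 members, Osi5 to Osi10, with no other TU among them. After Osi11 came Osi12 and then, past the minus-strand gene CG15597, the 8 members Osi13 to Osi20. The last block was part of an unbroken plus-strand run of 14 TUs that began with CG15594 and ended with CG17919. Of 8885 such same-strand runs on the 5 large arms (X, 2L, 2R, 3L and 3R), 6 were at least as long (0.0675%), the Osiris run itself among them, and the median run was 1 TU. All 14 TUs of the Osiris run had a protein-coding gene, 8 of them Osiris genes. Another of these runs, of 102 TUs on 2R, was almost wholly non-coding and held 2 TUs with a protein-coding gene. The rest were mostly coding. On the X they had 17, 16 and 14 TUs, of which 9, 16 and 12 had a protein-coding gene. On 2L the run had 16 TUs, 15 of them with a protein-coding gene.

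The strand bias of the whole cluster was also set beside the genome. The cluster contained 26 TUs with a protein-coding gene, of which 23 were on the plus strand (88.5%). Among 12810 stretches of 26 consecutive coding TUs on the 5 arms, 10 had at least 23 on the same strand (0.0781%). Of these 10 overlapping stretches, 7 touched the Osiris cluster itself and the other 3 were on 2R.

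Neighbouring Osiris genes were on the same strand in 16 of 20 pairs (80%), where 43.3% of 12930 consecutive pairs of coding TUs were. Of the 17 pairs with no other TU between them, 13 were on the same strand (76.5%). Neighbouring Cpr genes shared a strand in 26 of 38 pairs (68.4%). The 2 pairs whose ends faced each other were the closest in the array, Osi3 and Osi4 at 118 bp and Osi10 and Osi11 at 195 bp. The 2 pairs whose starts faced each other were far apart, Osi4 and Osi5 at 5730 bp and Osi11 and Osi12 at 9773 bp. Gaps of same-strand pairs lay in between and beyond, from 1065 bp for Osi14 and Osi15 to 23839 bp for Osi1 and Osi24. The median gap was 3521.5 bp over the 20 pairs, the same over the 16 same-strand pairs, and 2939 bp over the 17 pairs with no other TU between. It was 362 bp over all consecutive coding TUs, where overlapping neighbours count as 0. By arrangement, that background was 636 bp for the same strand, 17 bp for facing ends and 381.5 bp for facing starts. The 2 Osiris pairs with facing ends were thus also wider apart than the median such pair.

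The widest gap in the Osiris cluster held genes of other families. Between Osi1 and Osi24 lay NPFR, the receptor of neuropeptide F, in a TU of 8089 bp, and the pseudogene CR31562. When members were joined over at most 20 kb, Osi1 dropped out, and the remaining 20 members spanned 143 kb. The next gap, 11812 bp between Osi6 and Osi7, held no other TU. The other TUs inside the cluster were CG15597 and CG15594 between Osi12 and Osi13, and CG46026 and CG31560 between Osi16 and Osi17. Of these 6 non-members, 5 were on the plus strand, and member TUs covered 38.8% of the span.

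The tight array of Tweedle genes was built differently. Its first 12 members, TwdlM to TwdlD, lay within 21.9 kb, from 26619118 to 26641054, and their TUs covered 53.2% of that length. TwdlM (FBgn0039434), on the plus strand, came first and faced TwdlP end to end across 383 bp. Then 5 minus-strand genes followed, TwdlP, TwdlB, TwdlL, TwdlO and TwdlK, and after them 6 plus-strand genes, TwdlJ, TwdlN, TwdlH, TwdlR, TwdlS and TwdlD. The 2 blocks pointed away from each other, with the starts of TwdlK and TwdlJ 1194 bp apart. The non-coding gene CR46233 (1711 bp, minus strand), between TwdlS and TwdlD, was the only other TU in this stretch.

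**Figure D2:**
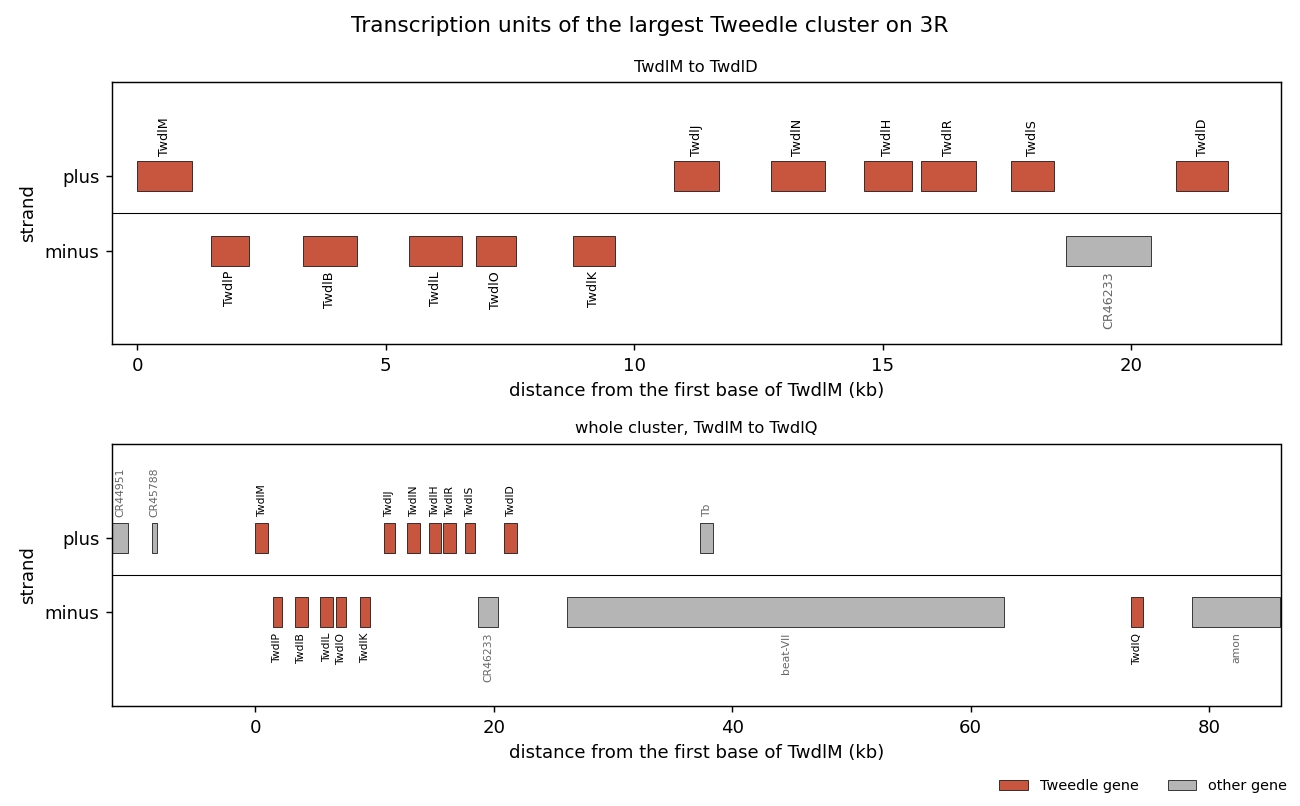
The TUs of the largest Tweedle cluster are drawn to scale on the plus and minus strands against the distance in kb from the first base of TwdlM, with TwdlM to TwdlD enlarged in the upper panel and the whole cluster in the lower. Tweedle members are red and other genes grey. A block of 5 minus-strand genes is followed by 6 plus-strand genes, and TwdlQ stands apart beyond beat-VII and Tb.

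The number of genes in this stretch was high for its length. The 12 members were the only coding TUs in it, and the median number of coding TUs in windows of the same length, begun at each coding TU of the 5 arms, was 4. Of 12931 such windows, 202 (1.56%) held at least 12. The stretch was cut at its own outer members and leaves out the distant TwdlQ, so its density follows in part from that choice. The whole Tweedle cluster, to TwdlQ, held 15 coding TUs against a median of 10, a number reached by 23.9% of windows of its length. The Osiris cluster held 26 against a median of 20, a number reached by 31.4% of windows of its length. Neighbouring Tweedle genes of the 12 were 170 bp (TwdlH and TwdlR) to 2467 bp (TwdlS and TwdlD) apart, with a median of 1043 bp. Over all 13 members, neighbours shared a strand in 9 of 12 pairs (75%), beside the 43.3% of all consecutive coding pairs. The coding TUs of the whole Tweedle cluster were split 8 to 7 between the strands.

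TwdlQ (FBgn0039448, 26692546 to 26693590, minus strand) joined the cluster across a gap of 51491 bp from TwdlD. This gap held beat-VII, a member of the Beat family of cell surface proteins, in a minus-strand TU of 36685 bp. Inside beat-VII, on the opposite strand, lay Tb (FBgn0243586, 26656440 to 26657531, 1092 bp), the gene of the Tubby mutation. Tb has TwdlA among its RefSeq synonyms but does not carry a Twdl symbol in the annotation, so the choice by symbol missed it. Tb lay 15385 bp from TwdlD and 35014 bp from TwdlQ. With members joined over at most 50 kb, TwdlQ left the cluster and its span was 21937 bp, and with Tb counted as a member the same distance kept 14 members.

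**Figure D3:**
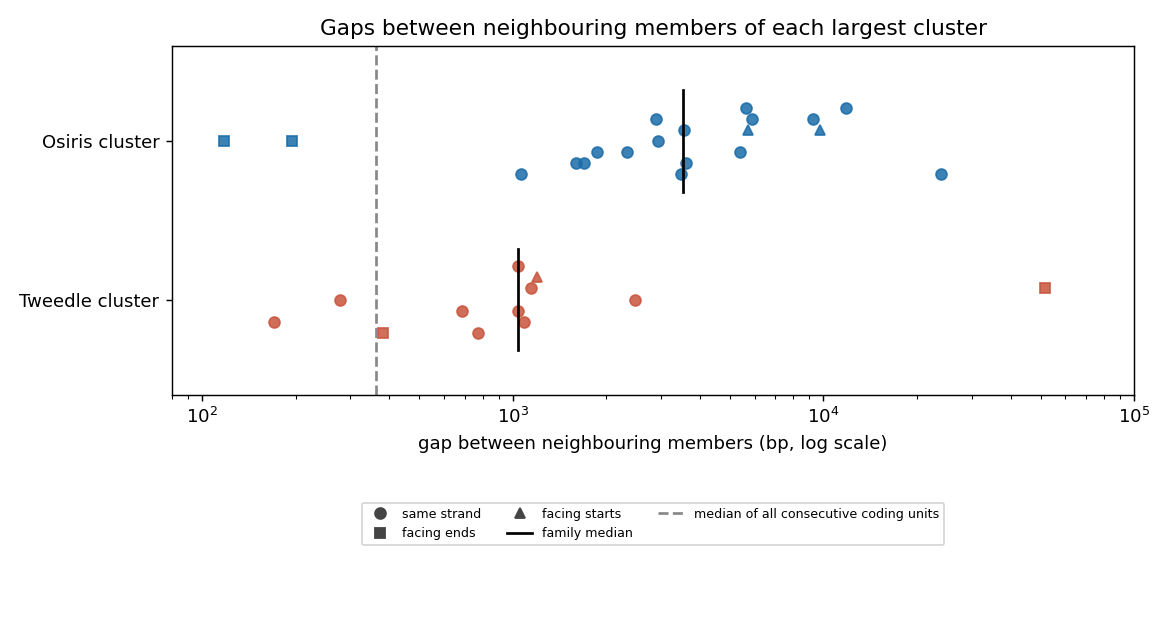
Each point is the gap in bp, on a log scale, between neighbouring members of the largest Osiris cluster (20 pairs) or the largest Tweedle cluster (12 pairs). Circles are pairs on the same strand, squares are pairs with facing ends and triangles pairs with facing starts. The black bars mark the medians of 3521.5 and 1043 bp, and the dashed line marks the median of 362 bp over all consecutive coding TUs.

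Of the 13 Tweedle genes outside the largest cluster, 10 sat in 3 smaller groups. TwdlU, TwdlF, TwdlG and TwdlV formed a group of 12.2 kb on 3R from 4243606 to 4255833, which lay 1.92 Mb from the Osiris cluster. TwdlG was on the minus strand and faced TwdlF end to end across 409 bp, and CG14644 lay between TwdlG and TwdlV. TwdlU, of 1906 bp, is listed as a pseudogene by RefSeq, the only member of either family without a protein-coding class.

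The X-linked group was nested in another gene. TwdlX (1540 bp), TwdlY (1034 bp), TwdlZ (691 bp) and Twdlalpha ran in tandem on the plus strand from 16731091 to 16744365, 2037 to 2316 bp apart as TUs. All 4 TUs lay entirely within goe, a gene of the neprilysin family of metallopeptidases, whose minus-strand TU of 24607 bp extended from 16727304 to 16751910. Such complete nesting on the opposite strand was found for 4 of 26 Tweedle and 0 of 24 Osiris TUs, with a share of 8.35% among all coding TUs. Tb, nested in beat-VII, carries no Twdl symbol and is not among the 26. The 4 X-linked genes were also the only members of either family on the chromosome that dosage compensation acts on in males.

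TwdlC and TwdlT were neighbours as TUs but not as genes. TwdlC (1611 bp) ended 537 bp before a TU of 60956 bp that merged RYa-R, the receptor of RYamide neuropeptides, with CG31077 and TwdlT. The interval of RYa-R in RefSeq equalled this TU, and the TwdlT gene, 1785 bp from 27049220 to 27051004, made up 2.93% of it. The distance from TwdlC to the TwdlT gene was 52777 bp. The merged TU was overlapped by 8 TUs of the opposite strand, among them CG6296 and Nep5, but none of the 8 overlapped the TwdlT gene.

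**Figure D4:**
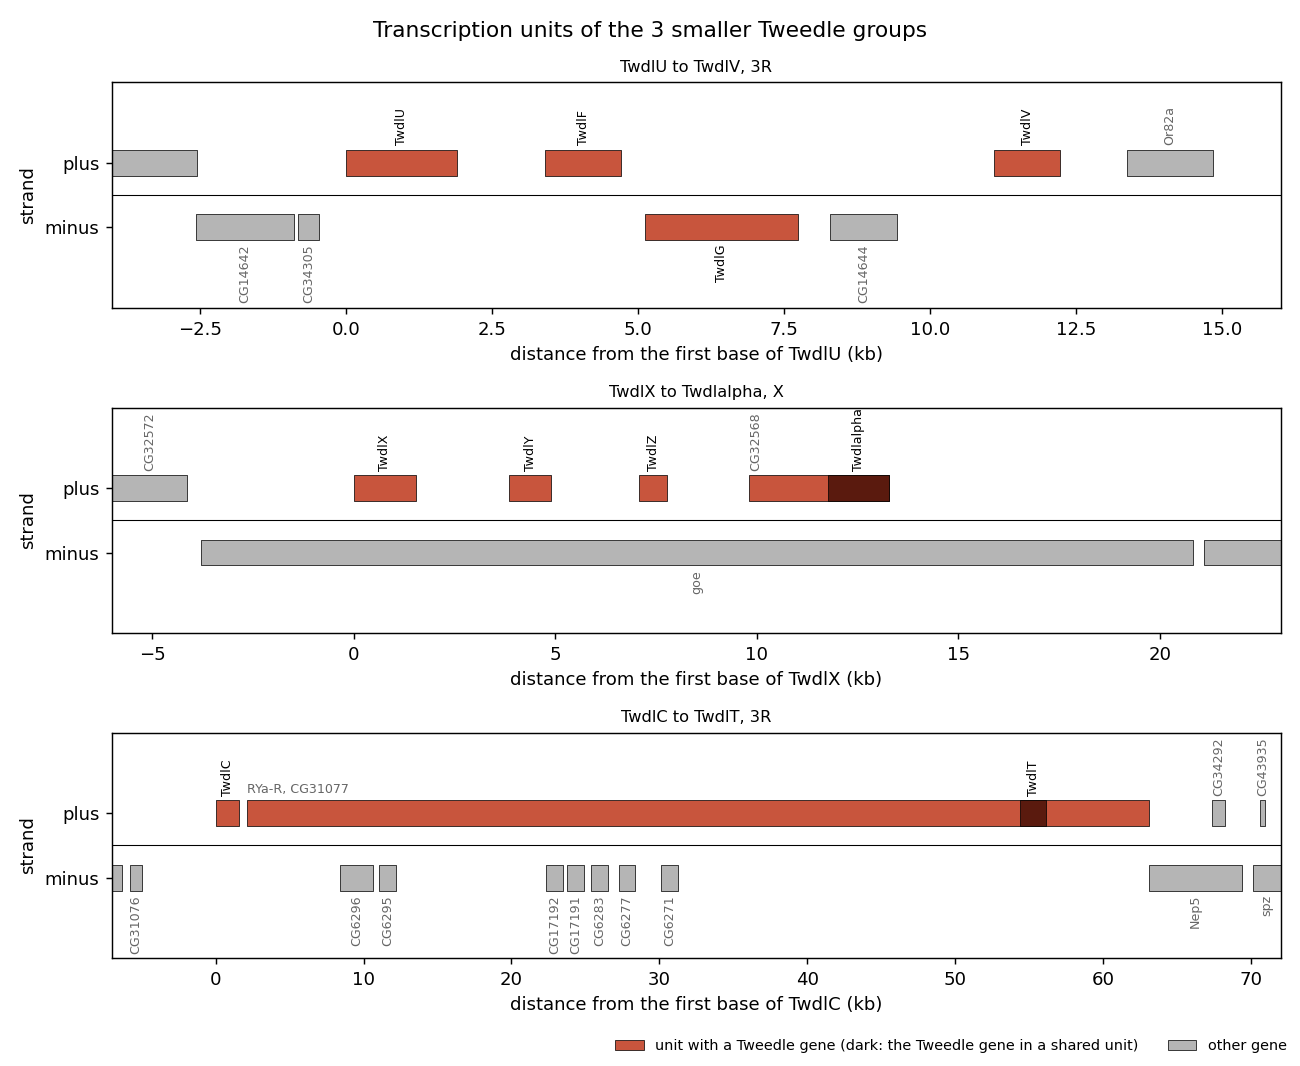
The TUs of the 3 smaller Tweedle groups are drawn to scale on the plus and minus strands against the distance in kb from the first base of the first member. Red marks TUs with a Tweedle gene, dark red the Tweedle gene within a TU shared with other genes, and grey other genes. The X-linked TUs all lie inside goe, and TwdlT occupies a small part of the RYa-R unit.

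Twdlalpha was the other member in a shared TU. Its gene of 1519 bp overlapped CG32568 by 72 bp on the same strand, and the merged TU measured 3460 bp. Reads over TwdlT or Twdlalpha, summed over TUs, would therefore include those of RYa-R, CG31077 or CG32568. Of the 26 Tweedle TUs, 2 merged several genes, against 0 of 24 Osiris TUs and 8.4% of all coding TUs.

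The single genes lay beside genes of other families. Osi21 (FBgn0283678, 2L, 11284327 to 11285706, minus strand), known for its part in endolysosomal trafficking in photoreceptors, overlapped the DNA repair gene mre11 by 9 bp. Osi22 (FBgn0038133, 13290629 to 13291846, plus strand) was 6.95 Mb from the Osiris cluster and 205 bp from wntD, a Wnt gene. Osi23 (FBgn0039771, 30444076 to 30445046, minus strand), needed for the pores of olfactory hairs, was 24.1 Mb from the cluster, between CG15537 at 476 bp and aralar1 at 588 bp.

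Among the Tweedle single genes, TwdlE (FBgn0031957, 2L, 7857957 to 7860839, minus strand) shared 2164 bp with lectin-28C on the opposite strand, 75.1% of its own TU. Twdlbeta (FBgn0033658, 2R, 11862537 to 11863252, minus strand) lay between CG34230 at 521 bp and the caspase gene Damm at 859 bp. TwdlW (FBgn0038487, 3R, 17141208 to 17142404, minus strand) ended 39 bp from CG5265 and was 9.48 Mb from the largest cluster.

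The median TU of both families was shorter than that of coding genes in general, more clearly so for Tweedle. The median Osiris TU measured 1794 bp (range 971 to 15537, n = 24) and the median Tweedle TU 1090.5 bp (range 691 to 60956, n = 26), against 2230 bp for 12935 coding TUs of the 5 arms (interquartile range 1205 to 5202). Below that median were 15 of 24 Osiris and 22 of 26 Tweedle TUs. The interquartile range was 1367.5 to 2872.5 bp for Osiris and 926.75 to 1478.5 bp for Tweedle. The lower quartile of Osiris thus lay above that of coding TUs. The Cpr genes, with a median of 1113 bp, were close to the Tweedle genes in this measure.

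Length varied far more within the Osiris than the Tweedle cluster. The 13 TUs of the Tweedle cluster lay between 757 bp (TwdlP) and 1114 bp (TwdlR). In the Osiris cluster 15 members measured 1120 to 2690 bp, and 6 measured 3420 bp or more, namely Osi24, Osi2, Osi4, Osi10, Osi12 and Osi17. The longest were Osi24 at 8868 bp and Osi17 at 15537 bp, and Osi17 also had the most transcripts, 4. Osi23 at 971 bp, outside the cluster, was the shortest Osiris TU.

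**Figure D5:**
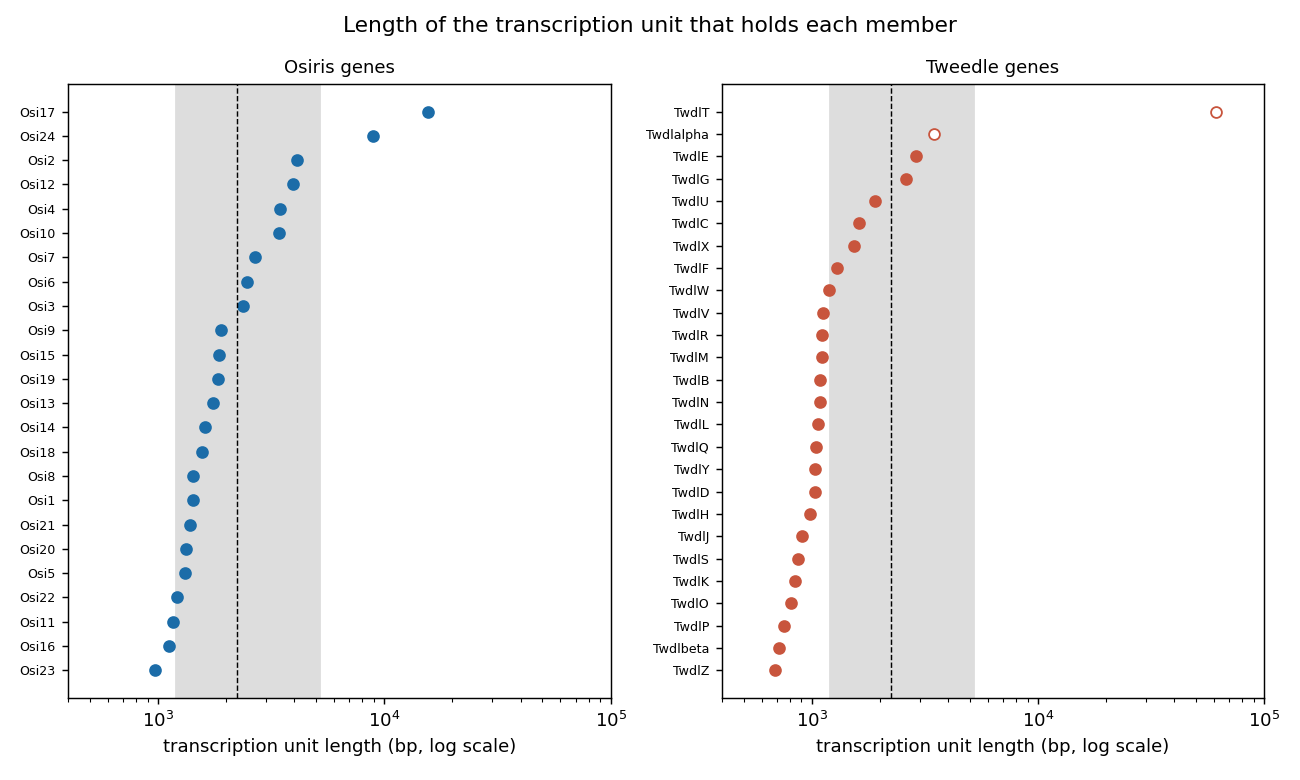
Each point is the length in bp, on a log scale, of the TU that holds 1 member, sorted within each family. Open points are TUs shared with other genes, the dashed line is the median of all coding TUs (2230 bp) and the grey band their interquartile range. Of 26 Tweedle TUs 22 lie below that median, and of 24 Osiris TUs 15 do.

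Few members had several transcripts. A single annotated transcript was listed for 17 of 24 Osiris TUs (70.8%) and for 22 of the 24 Tweedle TUs that held no other gene (91.7%), with a background of 51.4% among 11849 single-gene coding TUs. Besides Osi17, Osi2 had 3 transcripts, and Osi3, Osi4, Osi5, Osi6 and Osi19 had 2. TwdlG had 3 transcripts and TwdlL had 2.

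No TU of the opposite strand overlapped any of the 21 members of the Osiris cluster or the 13 of the Tweedle cluster, whereas 39.8% of all coding TUs had such an overlap. Tb, which lies in the Tweedle cluster inside the opposite-strand beat-VII, carries no Twdl symbol and is not among the 13. Over the whole families 1 of 24 Osiris TUs (Osi21) and 6 of 26 Tweedle TUs were overlapped. The 6 were TwdlE, the TU of TwdlT and the 4 X-linked TUs. Where overlap had to cover 50% of the shorter TU, the same 6 (23.1%) were counted, close to the 19.2% of coding TUs. At 1 bp their share lay below the background. Of the 6, the 4 X-linked TUs shared the host goe, and the TwdlT gene itself was not overlapped. Among the Cpr TUs, 11 of 70 (15.7%) were overlapped.

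Divergent starts were also rare. A start on the opposite strand within 500 bp upstream was found for 0 of 24 Osiris and 1 of 26 Tweedle TUs, with a background of 27.3% among coding TUs. The Cpr TUs had 3 of 70 (4.29%). The exception was TwdlU, 460 bp from CG34305, and TwdlD was just outside the limit at 510 bp from CR46233. In the Osiris cluster the nearest upstream start on the opposite strand was 5731 bp (Osi4 and Osi5) to 58597 bp (Osi3) away, with a median of 26572 bp, against a median of 2773 bp over coding TUs. Among the Osiris genes outside the cluster the nearest was at 1816 bp, from Osi22 to CG15887. In the Tweedle cluster these distances ran from 510 bp (TwdlD) to 75909 bp (TwdlM), with a median of 5008 bp. The distances within a cluster are not separate values, because tandem members share a facing start. It was CG31559 for Osi1, Osi24, Osi2 and Osi3, Osi4 for Osi5 to Osi10, and CG15597 for Osi13 to Osi20. Likewise TwdlP to TwdlK all faced TwdlJ, and TwdlJ to TwdlS all faced TwdlK. These medians therefore largely restate the strand blocks.

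Isolation, meaning a length of at least 2000 bp and flanks of 500 bp that are free of other TUs, was met by 6 Osiris TUs (25%), beside 10.4% of coding TUs. They were Osi24, Osi2, Osi6, Osi7, Osi12 and Osi17. No Tweedle TU met it, and 10 of 70 Cpr TUs did (14.3%). Only 4 Tweedle TUs reached 2000 bp at all, so length by itself bars the others. The gap to the closest TU of any strand had a median of 1694 bp in the Osiris cluster and 383 bp in the Tweedle cluster, against 60 bp over coding TUs.

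The space on the members' own strand matters for assigning nascent transcripts that run past a gene's end, since a tandem neighbour lies in their path. In the Osiris cluster the nearest TU upstream on the same strand ended at a median of 3407 bp before the start, from 773 bp for Osi17, behind CG31560, to 45809 bp for Osi4. In the Tweedle cluster the median was 1086 bp, from 170 bp for TwdlR, behind TwdlH, to 9693 bp for TwdlJ. The median of this upstream gap over coding TUs was 2584 bp, between the values of the clusters. Downstream, the nearest TU on the same strand lay at a median of 3552 bp in the Osiris cluster. The range was 517 bp for Osi16 to 61082 bp for Osi4. For the Tweedle cluster the downstream median was 1086 bp, from 170 bp for TwdlH to 77398 bp for TwdlP. Coding TUs had a downstream median of 2647 bp.

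The boundaries of the members were those of the reference annotation. RefSeq listed 23 of 24 Osiris and 26 of 26 Tweedle symbols, and for all 23 Osiris genes and 24 Tweedle genes both ends of the TU equalled those of the gene in RefSeq. The other 2 Tweedle genes were those in shared TUs. The unmatched symbol was Osi10, which RefSeq divides into Osi10a (1508 bp, 6263958 to 6265465) and Osi10b (1268 bp, 6266190 to 6267457), separated by 724 bp. The deposited annotation had Osi10 as 1 TU of 3420 bp from 6263976 to 6267395 with 1 transcript. Polymerase over most of Osi10a and Osi10b thus falls in the same interval there. The start of Osi10a and the end of Osi10b lie just outside it. Counted as 2 genes, they raise the Osiris cluster to 22 members.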

How the data were processed

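The only values used were the starts and ends of TUs in the annotation deposited by the authors. Per the file headers, it is in GFF version 2 and came from rtracklayer 1.48.0. The build was dm6 per the submitters' processing notes. How genes were merged into TUs is not given in the sources used here. Coordinates are 1-based. Of 15991 TUs, 12935 on the 5 large arms had a protein-coding gene, by matching symbols and synonyms to RefSeq genes on this assembly. Osi10 was counted as coding because Osi10a and Osi10b are.

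Members within 100 kb of each other were joined into clusters. A gap is the distance in bp, 0 on overlap. A divergent start is an opposite-strand start at most 500 bp upstream, and overlap needed 1 bp. All members are named or counted. Neighbour distances were tested on simulated data against plain loops. Python 3.11.15, numpy 2.4.6 and matplotlib 3.10.9 were used. The members, gene lists and settings were chosen with earlier results of these data known. Promoter motifs and protein identity were not analysed here, nor was coverage. The files gave no sample values, so groups were not compared.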

Additional observations from a re-analysis of the deposited data

How the results depend on the processing

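Joining distance, overlap minimum, facing distance and the unit measured were varied, and the versions with Tb and with Osi10a and Osi10b were added after seeing the data. The span of the largest Tweedle cluster was 21937 bp in place of 74473 bp with members joined over at most 20 kb or 50 kb, because TwdlQ dropped out. The median Osiris length was 1611 bp by RefSeq genes, with Osi10 as 2 genes, and the median Tweedle length was 1077 bp over TUs of 1 gene. With overlap of 50% of the shorter TU, 0 Osiris and 6 Tweedle TUs (23.1%) were overlapped, beside 19.2% of coding TUs. The Tweedle share, below the background at 1 bp, was then close to it, and 4 of the 6 TUs lay inside goe. Divergent Tweedle starts numbered 0 within 250 bp and 3 within 1000 bp (14% and 36.6% of coding TUs), and no Osiris start was divergent at either distance. The numbers of members in each cluster stayed between 20 and 22 for Osiris and between 12 and 14 for Tweedle. Other promoter windows and protein comparisons were not run. No paired analysis was possible because no result comes from a test of samples.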

Other observations

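Each of the 22 listed genes of chitin, the apical matrix and epidermal regulation had a TU longer than the median of either family. The median of the Cpr genes, 1113 bp, was close to the Tweedle median of 1090.5 bp and below the Osiris median of 1794 bp. Of the chitin synthesis and matrix genes listed, 8 of 9 were found (rtk was not matched by symbol), with a median TU of 5297.5 bp and a range from 3300 bp (knk) to 14774 bp (kkv, the chitin synthase, in a TU of 2 genes). The 10 genes with a zona pellucida domain, which shape the apical matrix, had a median of 14835 bp, from 6670 bp (neo) to 136839 bp (dpy, in a TU of 3 genes), and 4 of them were on the X. The 4 regulators of epidermal genes (ovo, grh, vvl and Blimp-1) measured 4784 to 41689 bp. All 22 exceeded the coding median of 2230 bp. Opposite-strand overlap was found for 8 of the 22, beside 39.8% of coding TUs, and a divergent start for 3, beside 27.3%. Gasp, a chitin-binding protein of the tracheal and epidermal cuticle, lay on 3R from 6088799 to 6100887.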
